A study of Mus musculus with 8 samples.

Results

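The genes that encode the proteins of the cytosolic ribosome were described by their promoter H3K9ac in BM cells of *NUP98-HOXD13-tg* mice. They were taken as the protein-coding genes whose symbol is *Rpl* or *Rps* with a number, together with *Rplp0*, *Rplp1*, *Rplp2* and *Rpsa*, which gave 83 of 21938 genes. Of these, 48 encode proteins of the large (60S) subunit, 32 of the small (40S) subunit and 3 of the P-stalk, which is also part of the large subunit. No measured value was used to choose them.

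All mice were C57BL/6 and carried the *NUP98-HOXD13* fusion transgene, a model of MDS that can progress to leukaemia. They expressed human GFI1 in the form *GFI1-36S* (serine at residue 36), *GFI1-36N* (asparagine at that residue) or a reduced amount of it (*GFI1-KD*). Whole BM was collected after weekly intraperitoneal curcumin (20 mg/kg) or, in the mice labelled as given no curcumin, the vehicle. The age of the mice, the number of mice behind a library and the zygosity are not given by the labels. Each group is 1 library, so the differences below rest on single libraries and were not tested. The study asked whether curcumin lowers histone acetylation in the leukaemia-prone genotypes.

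Each ribosome holds 1 copy of nearly every ribosomal protein, and a growing cell makes these proteins together. Their mRNAs begin with a run of pyrimidines, the TOP motif, through which mTOR signalling controls translation. Many of the genes also carry snoRNAs in their introns, small RNAs that guide the modification of rRNA. Loss of a single copy of some of them impairs red cell formation, as in Diamond-Blackfan anaemia and in MDS with loss of *RPS14*. H3K9ac marks the nucleosomes next to the start sites of active genes, and GFI1 is a repressor that recruits histone deacetylases.

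The values came from 6 lists of MACS2 peaks. For each gene, the peak with the highest fold enrichment within 1 kb of any TSS was ranked among the corresponding peaks of all protein-coding genes in the same library. The rank runs from 0 (no peak) to 100 (the strongest promoter), so that the middle of all promoters with a peak lies near 50. It compares promoters within a library and is not an absolute level of acetylation. The rank also depends on the number of genes with a promoter peak, 9726 to 11801 per library. With fewer of them, a gene that keeps its place from the top takes a lower rank, the more so the weaker its promoter. The lists hold 20354 to 49213 peaks. MACS2 derives its fold enrichment and p-value from a local background and the number of fragments over the summit, and both numbers could be recovered for 100% of the peaks of each list. At the promoters of all genes the median summit held 72 fragments in the *GFI1-36S* curcumin library and 120 to 164 in the others. The cell type markers also set this library apart. A promoter peak was listed for 0 of 10 neutrophil, 1 of 8 erythroid and 0 of 6 progenitor marker genes but for 7 of 8 T-cell marker genes. In the *GFI1-36S* vehicle library the numbers were 10, 8, 5 and 1. The other libraries had a peak at 6 to 10 neutrophil, 3 to 8 erythroid, 5 or 6 progenitor and 0 to 4 T-cell markers, and no library had one at more than 3 of 6 B-cell markers. In whole marrow, a change of cell types and a change within cells cannot be told apart. In addition, the 2 *GFI1-36S* lists are named for treatments opposite to those in the labels. The labels were followed, and the median difference of each comparison that uses these lists is also given with the 2 lists swapped. For *GFI1-36N*, the vehicle list carries +ki in its name and the curcumin list kiki, so that curcumin and a difference of zygosity cannot be told apart in this pair.

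Stretches near the start sites of the genes at either end of the range are shown first, since the pyrimidine run of the TOP motif is the sequence feature the genes are known for. Each stretch is placed on a run of pyrimidines, and only that of *Rps27* contains the annotated start. Whether these runs are TOP motifs was therefore not shown. The genes are 4 of the highest and the 4 lowest by mean rank among genes with a peak in all 6 libraries. Each stretch of 30 bases was read from GRCm38, the assembly named mm10, in the direction of transcription. The capitals mark the longest run of C and T that overlaps the 50 bases on either side of the principal TSS of GENCODE.
*Rpl9* (chr5:65391383-65391412, minus strand, highest rank): acgaaagacgTTCTCTCTTTgccccatcta
*Rps6* (chr4:86857349-86857378, minus strand, highest rank): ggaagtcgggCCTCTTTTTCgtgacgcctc
*Rps27* (chr3:90213631-90213660, minus strand, highest rank): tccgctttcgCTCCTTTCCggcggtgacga
*Rps13* (chr7:116334231-116334260, minus strand, highest rank): ggacgcgtagTCTCCCgggctccggtggcc
*Rpl36a* (chrX:134585671-134585700, plus strand, lowest rank): gcggctctagCCTCTCTCTTTCCgagctgc
*Rps4x* (chrX:102189332-102189361, minus strand, lowest rank): ccgaccctaaTTTCTTCgttcgccggaaga
*Rpl39* (chrX:37085405-37085434, minus strand, lowest rank): tacttggttaCTTCTCaaaggccacctacc
*Rpl7l1* (chr17:46782669-46782698, minus strand, lowest rank): tcgaggcgggCCTCTCTaccccgcccggtg

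The run began 1 to 44 bases downstream of the annotated start in 5 of these genes and upstream in *Rps13*, *Rpl39* and *Rpl7l1*. The longest, of 13 bases, belonged to *Rpl36a*, the gene with the lowest mean rank of those with a peak in every library. A run of at least 8 bases within 50 bases of the start was found in 56 of the 83 genes (67.5%), against 38.95% of all protein-coding genes. Among the 79 genes with a peak in all 6 libraries, the mean rank had a median of 82.2 in the 54 with such a run and of 79.9 in the 25 without it. A TATAAA box from 40 to 21 bases upstream was found in none of the 83, in 2.30% of all genes and in 0.62% of all genes with a peak in every library. From 250 bases upstream to 50 downstream, CCGGAAG, a site read by ETS factors, was found on either strand in 31.3% of the 83 and in 11.2% of all genes, but in 21.5% of all genes with a peak in every library. GGGCGG, a site read by Sp factors, was found in 51.8% of the 83, 45.3% of all genes and 67.0% of all genes with a peak in every library. These are matches of letters only.

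H3K9ac was listed at nearly all ribosomal protein promoters in every library. A peak was present in 80 of 83 genes in the *GFI1-36S* vehicle library and in 79 in each of the others. Over all genes, a promoter peak was present for 51.9% and 44.3% with vehicle and curcumin in *GFI1-36S*, 51.7% and 53.8% in *GFI1-36N*, then 53.6% and 50.6% in *GFI1-KD* mice. A peak in all 6 libraries was found for 79 of the 83 genes, against 42.6% of all genes.

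The promoters also ranked high. The 83 genes had a median rank of 82.7 with vehicle and 89.9 with curcumin in *GFI1-36S*, 81.6 and 87.9 in *GFI1-36N*, then 74.9 and 77.9 in *GFI1-KD* mice. Promoters among the strongest 10% of their library numbered 26 with vehicle and 41 with curcumin in *GFI1-36S*, 21 and 36 in *GFI1-36N*, then 14 and 17 in *GFI1-KD* mice. Over all genes with a peak, this share is set by the rule at 9.92%, 9.96%, 10%, 9.98%, 10% and 9.96% in the same order. In all 6 libraries 67 of the 83 genes ranked above 50, for which the share of all genes was not computed. Of the 83, 10 were among the strongest 10% throughout, against 1.78% of all genes. The 2 *GFI1-KD* libraries held the lowest medians.

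**Figure D1:**
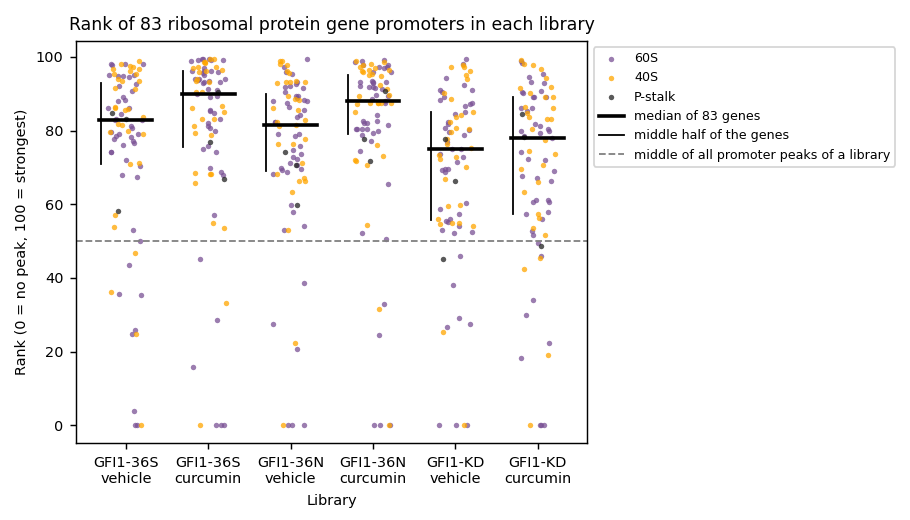
Rank of the strongest promoter peak (vertical axis, 0 for no peak, 100 for the strongest) of the 83 ribosomal protein genes in each library (horizontal axis), with 1 point per gene, coloured by subunit. The thick bars are the medians, from 74.9 to 89.9, all above the dashed line at 50 that marks the middle of all promoter peaks.

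The 60S and 40S genes lay at similar places. Among those with a peak, the median rank of the 60S genes ran from 74.9 (*GFI1-KD* vehicle) to 91.3 (*GFI1-36S* curcumin), and that of the 40S genes from 77.7 to 90.6 in the same libraries. The highest mean rank, 98.7, was that of *Rpl9*, a 60S protein (chr5:65388364-65391444, minus strand), which starts 53 bp from the TSS of the divergent gene *Lias*. It ranked 98.2 with vehicle and 99.4 with curcumin in *GFI1-36S*, 99.4 and 97.2 in *GFI1-36N*, then 99.4 and 98.8 in *GFI1-KD* mice. Its summits held 177 to 342 fragments, and the exact Poisson 95% interval of the lowest count was 151.9 to 205.1, which covers counting error only.

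*Rps6*, the 40S protein that S6 kinase phosphorylates downstream of mTOR, ranked between 97.7 and 99.4. *Rpl17* ranked between 97.4 and 99.2. *Rps14*, the gene lost in MDS with a deletion of the long arm of human chromosome 5, ranked 97.3 with vehicle and 98.7 with curcumin in *GFI1-36S*, 98.8 and 95.9 in *GFI1-36N*, then 97.4 and 99.2 in *GFI1-KD* mice. The range of each of these 4 genes spanned at most 3.26 rank points over the 6 libraries. *Rps27*, *Rps13* and *Rpsa*, the laminin receptor homologue of the 40S subunit, followed with mean ranks of 97.7, 96.6 and 95.9, and *Rpl27a*, *Rpl13a* and *Rpl11* with 95.5, 94.6 and 94.2.

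**Figure D2:**
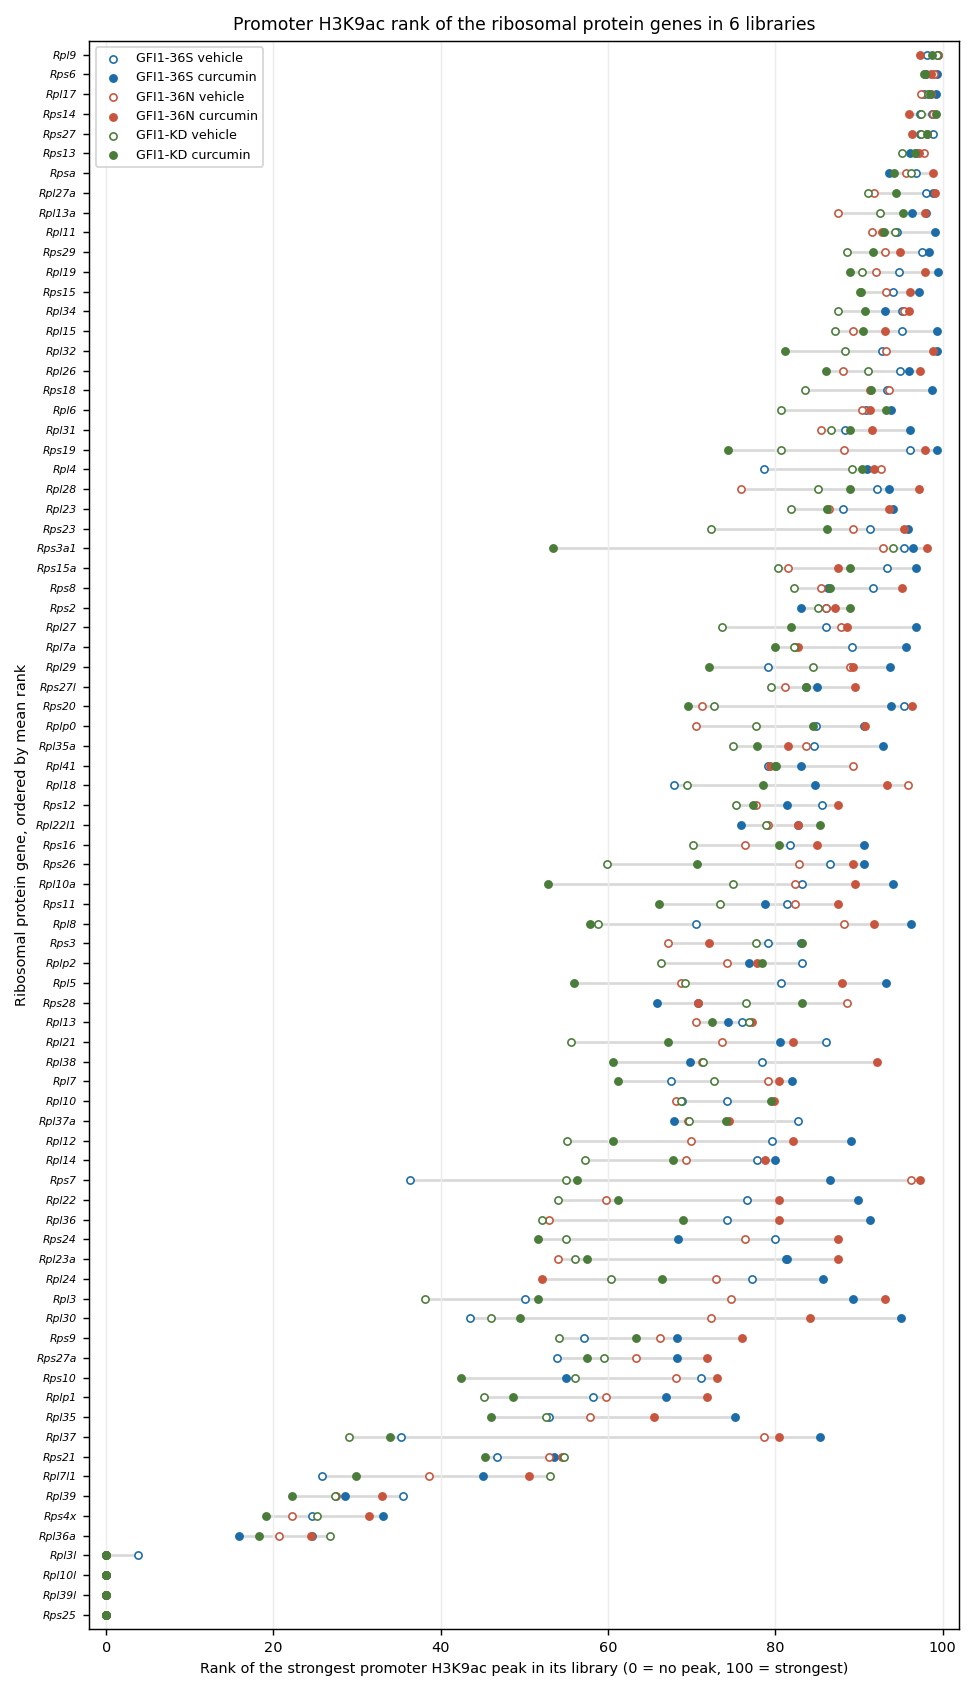
Rank of the strongest promoter peak (horizontal axis, 0 for no peak) of 80 of the 83 ribosomal protein genes (vertical axis, ordered by mean rank) in the 6 libraries, with open points for vehicle and filled points for curcumin. The genes at the top vary by a few points, *Rps7*, *Rpl37*, *Rpl3* and *Rpl30* by more than 50, and 3 genes have no peak in any library.

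The P-stalk, on which elongation factors are recruited to the ribosome, did not share these ranks evenly. *Rplp0*, its base, ranked 84.9 with vehicle and 90.6 with curcumin in *GFI1-36S*, 70.5 and 90.7 in *GFI1-36N*, then 77.7 and 84.6 in *GFI1-KD* mice. *Rplp1* was among the 10 lowest genes with a peak throughout and ranked 58.2, 66.9, 59.8, 71.8, 45.2 and 48.6 in the same order. *Rplp2*, which pairs with *Rplp1* in the stalk, lay between 66.4 and 83.2.

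The 16 genes fixed as those mutated in Diamond-Blackfan anaemia or lost in MDS all had a peak in every library. Their ranks had a median of 86.3 with vehicle and 94.6 with curcumin in *GFI1-36S*, 88.4 and 92.6 in *GFI1-36N*, then 78.6 and 82.5 in *GFI1-KD* mice, each above the median of all ribosomal protein genes with a peak. *Rps19*, the gene most often mutated in the anaemia, ranked 96.1, 99.3, 88.2, 97.9, 80.7 and 74.4, with both *GFI1-KD* libraries below the other 4. *Rpl11*, whose protein binds MDM2 when ribosome assembly fails, ranked between 91.6 and 99.0, and *Rpl5*, its partner in that complex, between 55.9 and 93.2. The mean ranks of others were 94.0 for *Rps29*, 92.4 for *Rpl15*, 92.3 for *Rpl26*, 85.8 for *Rpl27*, 82.6 for *Rpl35a*, 79.9 for *Rps26*, 75.9 for *Rps28*, 69.8 for *Rps24* and 60.9 for *Rps10*.

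The tissue-restricted or duplicated copies split into marked and unmarked promoters. *Rps27l*, a p53 target, ranked between 79.5 and 89.6 and *Rpl22l1*, the paralog of *Rpl22*, between 75.9 and 85.4. *Rpl7l1*, whose protein acts in ribosome assembly, ranked 25.8 and 45.1 in *GFI1-36S*, 38.6 and 50.6 in *GFI1-36N*, then 53.0 and 29.8 in *GFI1-KD* mice with vehicle and curcumin. *Rpl10l*, an intronless copy of *Rpl10* that is active in the testis, and *Rpl39l*, the testis form of *Rpl39*, had no peak in any library. *Rpl3l*, the copy used in heart and skeletal muscle, had 1 peak, in the *GFI1-36S* vehicle library, with a fold enrichment of 3.88, 22 fragments and a rank of 3.85.

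*Rps25* was the only gene outside the copies without a promoter peak in any library. It encodes a 40S protein used in initiation at viral entry sites and lies on chromosome 9 (chr9:44407139-44410427, plus strand). In each library no peak was listed over a stretch of 113019 to 178436 bp that began upstream of the gene and contained its TSS. In the *GFI1-36N* vehicle library the next peak began inside the gene, at chr9:44408834, beyond the 1 kb window. The TSSs of at least 9 other protein-coding genes lay inside this stretch in every library, among them *H2afx*, a histone gene. The lists had been filtered with a black list by the authors, and an absent peak may be one that was not called or one that was removed, which cannot be told apart here.

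The 4 genes on chromosome X included the 3 lowest promoters with a peak in every library. *Rpl36a* ranked 24.6 with vehicle and 15.9 with curcumin in *GFI1-36S*, 20.7 and 24.5 in *GFI1-36N*, then 26.7 and 18.3 in *GFI1-KD* mice. *Rps4x* ranked between 19.1 and 33.1 and *Rpl39* between 22.2 and 35.5. *Rpl10*, the fourth, ranked between 68.1 and 79.8 and did not overlap with them. At the summit of *Rpl36a* 38 to 96 fragments were recovered. All genes of chromosome X with a promoter peak had a median rank of 20.4 to 27.7 over the 6 libraries, so that the 3 low genes lay near the middle of their chromosome.

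Other gene groups give a scale for these ranks. Translation factors and further genes of TOP mRNAs (18 genes, 17 with a peak in each library) had median ranks of 80.7 and 92.5 with vehicle and curcumin in *GFI1-36S*, 90.3 and 87.3 in *GFI1-36N*, then 70.1 and 68.9 in *GFI1-KD* mice. The proteins of the mitochondrial ribosome (78 genes) had medians of 51.6 to 59.99 and genes of ribosome assembly and RNA polymerase I (20 genes) of 43.6 to 64.2. In every library both lay below the cytosolic ribosomal protein genes. The 4 listed ribosomal genes that the symbol rule leaves out, among them *Fau* and *Rack1*, had medians of 67.9 to 85.2.

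Next, the shape of the peaks was compared. The strongest promoter peak of the genes had a median width of 2527 bp with vehicle and 1519 bp with curcumin in *GFI1-36S*, 2226 and 2590 bp in *GFI1-36N*, then 2648 and 1912 bp in *GFI1-KD* mice. Over all genes the widths were 1795, 1064, 1725, 1769, 1963 and 1541 bp in the same order. Most of the additional width lay downstream of the TSS in the vehicle libraries. There, the peaks of the ribosomal protein genes reached a median of 616 bp upstream and 1892 bp downstream in *GFI1-36S* mice, against 548 and 1188 bp over all genes. The corresponding values were 552 and 1644 bp in *GFI1-36N* mice, against 534 and 1145 bp, and 720 and 1962 bp in *GFI1-KD* mice, against 628 and 1237 bp.

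The summit lay further into the gene as well. Its median distance from the principal TSS was 369 to 386 bp over the 6 libraries, against 205 to 228 bp over all genes. In each library 71 to 76 of the genes had the summit downstream of the TSS. This was 89.9% to 96.2% of those with a peak, against 77.9% to 80.2% of all genes. *Rps2* had it upstream in all 6 libraries, at -391 to -354 bp from the TSS. With the annotated TSS nearest to the summit instead, the distance of the ribosomal protein genes was 269 to 296 bp.

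At each position around the TSS the share of genes covered by a peak was computed for genes with a promoter peak. At 200 bp downstream, all 79 ribosomal protein genes were covered in both *GFI1-36N* and both *GFI1-KD* libraries, 97.5% with vehicle and 96.2% with curcumin in *GFI1-36S* mice. Over all genes the share at this place was 89.7% to 91.5%. At 100 bp upstream the share of the ribosomal protein genes dropped to 73.8% and 39.2% in *GFI1-36S*, 69.6% and 77.2% in *GFI1-36N*, then 86.1% and 62.0% in *GFI1-KD* mice. Over all genes the share at this place was 71.1%, 45.2%, 71.3%, 71.4%, 79.9% and 68.5% in the same order. At 300 bp upstream the share of the ribosomal protein genes was higher again in every library, at 60.8% to 91.1%, against 52.8% to 73.6% of all genes. The start sites of active genes are known to be poor in nucleosomes. In the *GFI1-36S* curcumin library, where this share was lowest, the strongest peak reached a median of 7 bp upstream of the TSS. At 1500 bp downstream 87.5% and 38.0% of the genes were covered in *GFI1-36S*, 70.9% and 91.1% in *GFI1-36N*, then 89.9% and 54.4% in *GFI1-KD* mice, against 36.2%, 13.8%, 32.8%, 34.6%, 38.6% and 24.1% of all genes.

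**Figure D3:**
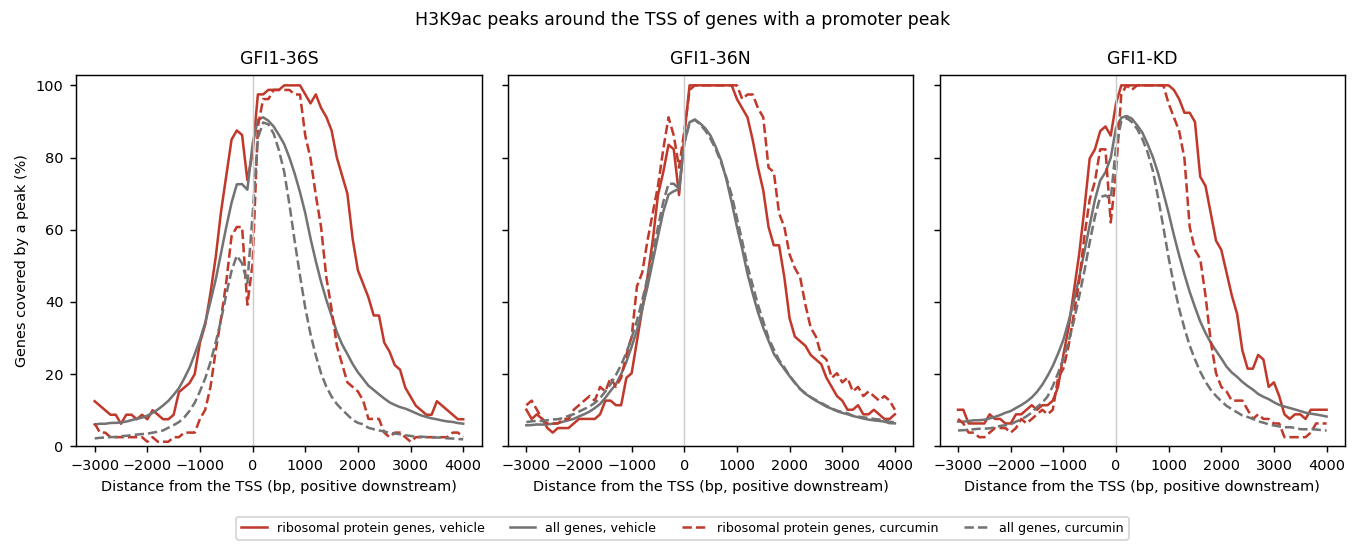
Percentage of genes with a promoter peak that a peak covers (vertical axis) at each distance from the principal TSS (horizontal axis, bp, positive downstream), for ribosomal protein genes (red) and all genes (grey) with vehicle (solid) and curcumin (dashed). The red lines stay at or near 100% up to about 1 kb downstream and dip just upstream of the TSS.

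Ribosomal protein genes are short, with a median length of 3368 bp against 17425 bp over all genes. The strongest peak covered a median of 40.9% to 61.4% of the gene, against 3.28% to 5.37% over all genes. It covered the whole gene in 1 to 10 of them per library, against 0.36% to 1.5% of all genes. *Rpl36*, at 828 bp the shortest, was covered whole in all 6 libraries. Across all genes, width and fold enrichment rose together within a library, with Spearman coefficients of 0.631 to 0.684. Across the 79 or 80 ribosomal protein genes the coefficients were -0.045 to 0.250. They are across genes of 1 library, which are not independent replicates. The 30 genes that carry at least 1 annotated snoRNA (58 snoRNAs in all) ranked much like the others, with medians of 77.3 to 89.96 over the libraries, against 74.2 to 92.1 in the 46 genes with a peak that carry none and are not copies.

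The comparison with curcumin was made within each genotype, which in *GFI1-36N* mice includes the difference in the zygosity named above. In *GFI1-36N* mice 66 of 79 ribosomal protein genes ranked higher with curcumin and 13 lower, with a median change of 5.56 rank points (quartiles 1.12 to 9.69), against 1.89 over all genes. A change of at least 10 points was found upward in 18 genes and downward in 2. Over all genes, such changes were found in 19.3% upward and 11.3% downward, so that the upward share of the ribosomal protein genes was near that of all genes. Among the largest rises were those of *Rpl23a* (54.1 to 87.5), *Rpl36* (52.9 to 80.4), *Rps20* (71.2 to 96.4) and *Rpl28* (75.9 to 97.1). The largest falls were those of *Rpl24* (72.9 to 52.1), *Rps28* (88.6 to 70.8), *Rpl41* (89.3 to 79.3), *Rps14* (98.8 to 95.9) and *Rpl18* (95.9 to 93.3). Ranked by recovered fragments, *Rpl24* fell by 6.93 points only, and 19 genes ranked at least 10 points higher and 2 lower, against 19.0% and 11.2% of all genes.

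In *GFI1-KD* mice 51 of 79 genes ranked higher with curcumin and 28 lower, and 37.1% of all genes ranked higher. The median change was 2.03 points (quartiles -2.69 to 6.33), against -2.34 over all genes (2.58 and -1.53 with 20354 top peaks per list). A rise of at least 10 points was found in 10 genes and a fall in 8, against 9.47% and 20.6% of all genes. The largest rises were those of *Rpl36* (52.1 to 68.9), *Rps23* (72.3 to 86.2), *Rpl3* (38.1 to 51.6), *Rpl6* (80.7 to 93.2) and *Rplp2* (66.4 to 78.4). The largest falls were those of *Rps3a1* (94.1 to 53.4), *Rpl7l1* (53.0 to 29.8), *Rpl10a* (74.9 to 52.8), *Rps10* (56.0 to 42.4) and *Rpl5* (69.2 to 55.9). At *Rps3a1* the local background at the summit was 1.77 times the commonest background of the curcumin library, and equal to it in the vehicle library. Ranked by fragments, *Rps3a1* fell by 2.48 points and *Rpl10a* fell by 2.49 points, *Rps10* ranked 4.64 points higher, and *Rpl5* fell by 14.04 points. On that scale 10 genes ranked at least 10 points higher and 5 lower, against 9.14% and 20.1% of all genes. Marker promoters moved in this pair too, from 10 to 6 of 10 neutrophil and from 8 to 3 of 8 erythroid genes with a peak, and their part in these changes was not tested.

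In *GFI1-36S* mice 55 of 80 genes ranked higher with curcumin and 25 lower, and 30.9% of all genes ranked higher. The median change was 3.37 points (quartiles -1.68 to 8.72), against -6.61 over all genes (3.95 and -3.85 with 20354 top peaks per list). Genes with a promoter peak numbered 11377 with vehicle and 9726 with curcumin, and the change over all genes depends on these numbers as well. A rise of at least 10 points was found in 18 genes and a fall in 4, against 15.0% and 41.4% of all genes. The largest rises were those of *Rpl30* (43.5 to 95.02), *Rps7* (36.3 to 86.6), *Rpl37* (35.2 to 85.4), *Rpl3* (50.1 to 89.3) and *Rpl8* (70.5 to 96.2). Among the largest falls were those of *Rps10* (71.1 to 55.0), *Rpl37a* (82.7 to 67.9), *Rps24* (79.98 to 68.4) and *Rpl36a* (24.6 to 15.9). Ranked by fragments, *Rps24* ranked 15.7 points higher and *Rps10* 1.55 points higher, so that the direction of both turned, and *Rps7* ranked 6.81 points higher. On that scale 14 genes ranked at least 10 points higher and 1 lower, against 14.3% and 40.9% of all genes. The marker promoters moved in this pair as given above, from neutrophil and erythroid to T-cell genes, and their part in these changes was not tested. If the list names were right and the labels wrong, the median change would be -3.37, and the value over all genes would change sign as well.

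**Figure D4:**
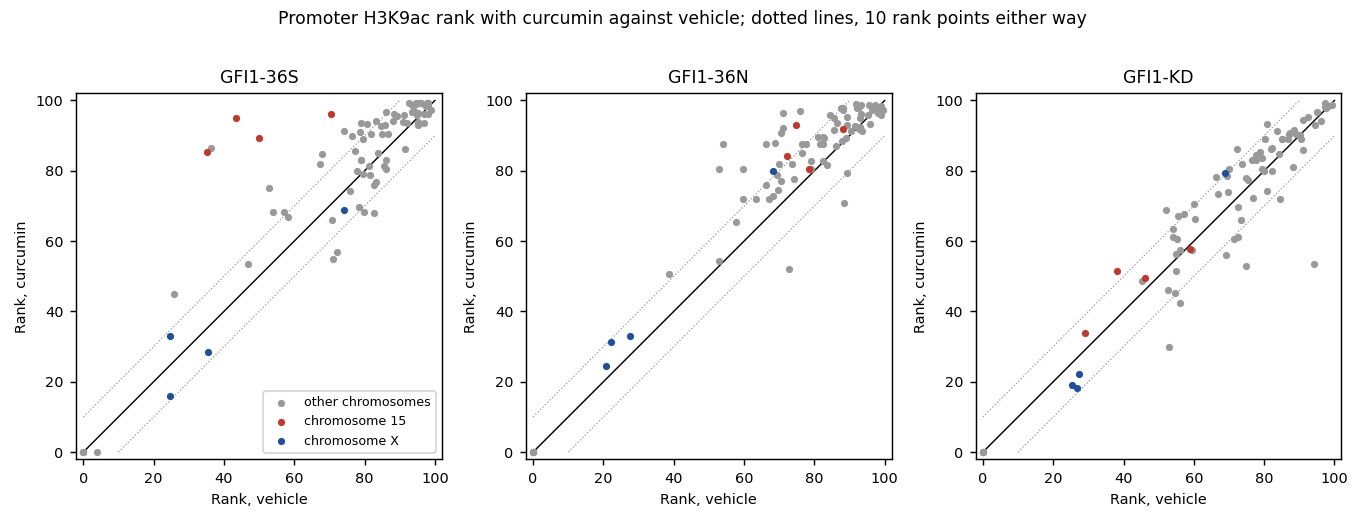
Promoter rank with curcumin (vertical axis) against vehicle (horizontal axis) for each ribosomal protein gene, with 1 panel per genotype. Dotted lines mark a change of 10 rank points; in *GFI1-36S* the 4 genes of chromosome 15 (red) lie far above the diagonal, and the lowest 3 genes of chromosome X (blue) stay in the lower left in every panel.

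A higher rank did not always go with a taller peak. The fragments at the summit were divided by the commonest background of the library, which scales for depth. On this scale the median log2 ratio of curcumin to vehicle was -0.64 for the ribosomal protein genes and -0.93 for all genes in *GFI1-36S* mice, with 77 of 79 ribosomal protein genes and 96.3% of all genes lower. In *GFI1-KD* mice it was -0.21 and -0.30, with 77 of 79 and 87.2% of all genes lower. In *GFI1-36N* mice it was 0.36 and 0.25, with 76 of 79 and 83.8% of all genes higher. These counts follow the direction of all genes in each pair. By this ratio the summits of the ribosomal protein genes fell by less than those of all genes in *GFI1-36S* and *GFI1-KD* mice. They rose by more in *GFI1-36N* mice. When fold enrichment was instead scaled to the median of all genes in each library, the log2 ratio had a median of 0.35 with 73 of 79 genes higher in *GFI1-36S* mice, 0.06 with 48 higher in *GFI1-36N* mice and 0.11 with 56 higher in *GFI1-KD* mice. Of all genes, 54.7%, 44.3% and 53.2% were higher on this scale.

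Of the 79 genes with a peak in all 6 libraries, 28 ranked higher with curcumin in all 3 genotypes and none ranked lower in all 3. Over all genes with a peak in all libraries, 9.20% ranked higher in all 3 and 17.8% lower. Both shares depend also on the number of genes with a promoter peak in each library. Without the *GFI1-36S* pair, 40 genes ranked higher in both *GFI1-36N* and *GFI1-KD* mice, against 23.0% of all genes. A further 2 ranked lower in both, for which the share of all genes was not computed. By subunit, the median change was 4.61 for 60S and 1.38 for 40S genes in *GFI1-36S*, 5.92 and 5.17 in *GFI1-36N*, then 2.28 and 1.52 in *GFI1-KD* mice. For the 16 anaemia genes it was 3.65, 1.56 and 1.07. For comparison, the mitochondrial ribosome changed by a median of 0.18, 3.88 and 0.92 points, ribosome assembly genes by 5.31, 4.89 and 1.12 and the translation factors by 6.78, 0.84 and 0.50.

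The 4 ribosomal protein genes of chromosome 15 were followed in detail, since 4 of the 5 largest rises in *GFI1-36S* mice were theirs. *Rpl37* (chr15:5116645-5119140, plus strand) ranked 35.2 with vehicle and 85.4 with curcumin in *GFI1-36S*, 78.6 and 80.4 in *GFI1-36N*, then 29.1 and 34.0 in *GFI1-KD* mice. *Rpl30* ranked 43.5, 95.02, 72.3, 84.1, 46.0 and 49.5, *Rpl3* 50.1, 89.3, 74.7, 93.1, 38.1 and 51.6, and *Rpl8* 70.5, 96.2, 88.2, 91.8, 58.8 and 57.8 in the same order. Each of the 4 was therefore low in the *GFI1-36S* vehicle and both *GFI1-KD* libraries and high in the other 3.

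The local background was raised in the 3 libraries where these ranks were low and also in the *GFI1-36S* curcumin library, where they were high. At promoter peaks of chromosome 15 its median was 1.49 and 1.5 times the commonest background in the *GFI1-36S* and 1.47 and 1.48 times in the *GFI1-KD* libraries, but 1 in both *GFI1-36N* libraries. Over all chromosomes it was 1 in every library. The fragments of chromosome 15 were raised in 1 library only, *GFI1-36S* with curcumin, where their median was 112 against 72 over all promoters. In the other 5 libraries the medians were 116 to 167, against 120 to 164. Ranked by fragments, which leaves the background out, *Rpl37* lay at 70.1 and 98.6 in *GFI1-36S*, 78.3 and 80.1 in *GFI1-36N*, then 59.5 and 59.5 in *GFI1-KD* mice. On that scale the 4 genes still ranked a median of 22.2 points higher with curcumin in *GFI1-36S* mice, against 44.7 by fold enrichment, and all genes of chromosome 15 ranked 15.2 points higher. Without these 4 genes the median change of the ribosomal protein genes in *GFI1-36S* mice was 3.08 points. The cause of the chromosome-wide difference was not tested.

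**Figure D5:**
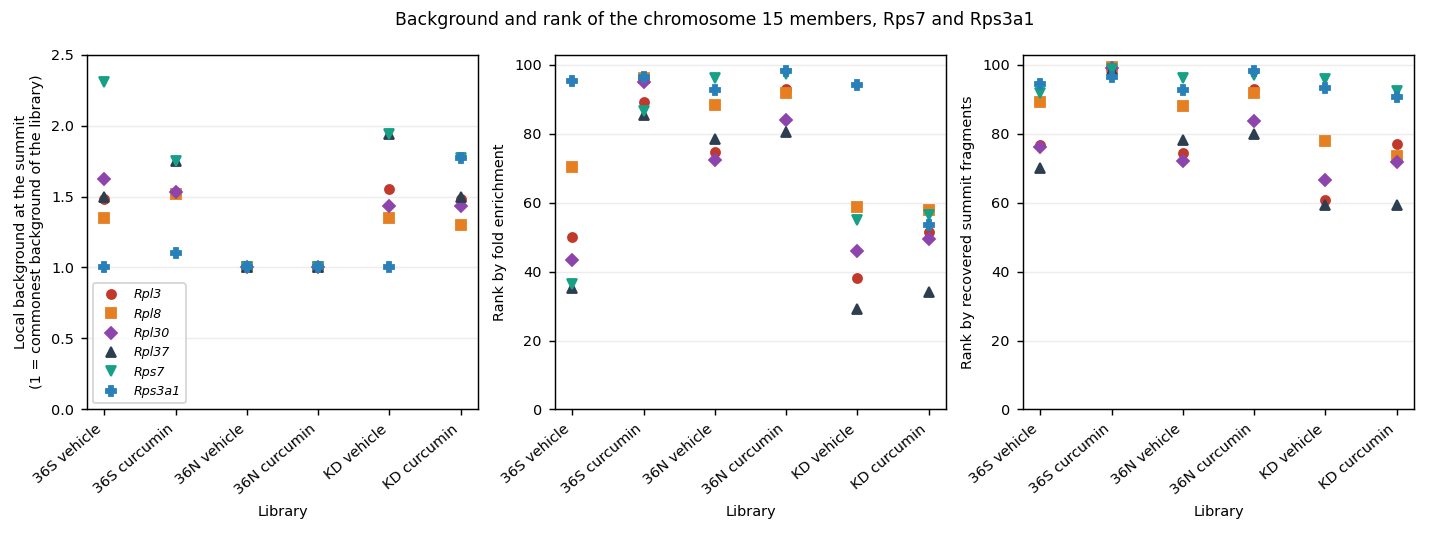
Local background at the summit relative to the commonest background of the library (left, vertical axis), rank by fold enrichment (middle) and rank by recovered fragments (right) of the 4 genes of chromosome 15, *Rps7* and *Rps3a1* in the 6 libraries (horizontal axis). Where the background is at 1, both ranks are alike, and where it is raised, the rank by fold enrichment is the lower.

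*Rps7*, on chromosome 12, ranked 36.3 with vehicle and 86.6 with curcumin in *GFI1-36S*, 96.3 and 97.2 in *GFI1-36N*, then 55.0 and 56.3 in *GFI1-KD* mice, the widest range of all 83 genes. Its local background was 2.31, 1.75, 1, 1, 1.94 and 1.77 times the commonest background in the same order. Ranked by fragments it lay between 92.0 and 98.8 in every library. In all, 9, 10, 6 and 10 of the ribosomal protein genes had a background at least 1.3 times the commonest in the *GFI1-36S* vehicle, *GFI1-36S* curcumin, *GFI1-KD* vehicle and *GFI1-KD* curcumin libraries, and 0 in both *GFI1-36N* libraries. The share of all genes with such a background was not computed.

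Finally, the vehicle libraries of the genotypes were compared. The comparisons with *GFI1-36S* share its library. In *GFI1-KD* mice 62 of 80 genes ranked lower than in *GFI1-36S* mice and 18 higher, and 57.3% of all genes ranked higher. The median difference was -6.17 points, against 1.14 over all genes. A rank at least 10 points lower was found in 25 genes and a higher one in 3, against 9.97% and 16.4% of all genes. The largest differences downward were those of *Rpl21* (86.1 in *GFI1-36S*, 55.6 in *GFI1-KD*), *Rps26* (86.5 and 59.9) and *Rpl23a* (81.2 and 56.0), and the largest upward was that of *Rpl7l1* (25.8 and 53.0). By fragments, 31 genes ranked at least 10 points lower and 1 higher, against 9.21% and 15.8% of all genes. With the other *GFI1-36S* list in its place, the median difference was -9.23 points, against 7.64 over all genes. In a comparison without the *GFI1-36S* libraries, added after seeing the data, *GFI1-KD* was set against *GFI1-36N*. There 57 of 79 genes ranked lower and 22 higher, and 59.3% of all genes ranked higher. The median difference was -3.26 points, against 1.73 over all genes. In this comparison 19 genes ranked at least 10 points lower and 2 higher, against 10.7% and 18.6% of all genes. By fragments, again 19 ranked lower by that amount and 1 higher, against 8.37% and 15.9%.

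In *GFI1-36N* mice 51 of 80 genes ranked lower than in *GFI1-36S* mice and 29 higher, and 46.4% of all genes ranked higher. The median difference was -2.54 points, against -0.67 over all genes. A rank at least 10 points lower was found in 13 genes and a higher one in 12, against 17.5% and 15.3% of all genes. *Rps7* and the 4 genes of chromosome 15 were among the 6 largest differences upward. By fragments the differences were 4.2 points for *Rps7*, 8.22 for *Rpl37*, -4.08 for *Rpl30*, -2.29 for *Rpl3* and -1.32 for *Rpl8*, so that 3 of the 5 turned. On that scale 12 genes ranked at least 10 points lower and 4 higher, against 14.2% and 13.1% of all genes. With the other *GFI1-36S* list in its place, the median difference was -5.34 points, against 5.65 over all genes.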

How the data were processed

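H3K9ac ChIP-seq of whole BM was analysed in 6 libraries, 1 per genotype and treatment. The input and rabbit IgG samples entered no calculation. The authors aligned the reads to mm10 by BWA-MEM, called peaks per library with MACS2 and applied the ENCODE black list. The submitters' processing notes also name Trim Galore, SAMtools, Picard and deepTools. The control of each list, the threshold and the treatment of duplicates and of reads with several matches are not given in the sources used here. Ribosomal protein genes have many processed pseudogenes, so that reads in their exons may have other matches. Each deposited list gives the fold enrichment over the local background (a ratio), −log10 p and −log10 q, an integer score, and the start, end and summit, all as the authors' caller wrote them and not normalized between libraries. The score was not used.

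Genes and the TSSs of basic transcripts came from GENCODE release M21. A promoter spanned 1000 bp on each side of any TSS, and 1 bp of overlap sufficed. Summit distances and sequences used the principal transcript, with sequences read from GRCm38.p6. Fragments and background at the summit were solved from fold enrichment and p within 0.002 on the −log10 p scale. Python 3.11.15, numpy 2.4.6, pandas 2.3.3 and scipy 1.17.1 were used, and peak assignment and ranks were tested on simulated lists. Values are counts and medians beside those of all genes.

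The genes, lists and alternatives were chosen with earlier results of these data known. The genes named are the 10 highest and 10 lowest by mean rank, the P-stalk and *Rpsa*, genes of chromosome X, the anaemia and copy lists, the 5 largest rises and falls per genotype, and genes lacking a peak. A few genes that the rule names are not reported here. Genes outside this rule, such as *Rps2* and the chromosome 15 genes as a group, were chosen after their values were seen, as was the placing of the printed sequences on the pyrimidine run.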

Additional observations from a re-analysis of the deposited data

Results flagged for a closer look

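With 1 library per group, genotypes were compared only by whether changes with curcumin had opposite signs. None of these differences was tested. The median change of the 4 genes of chromosome X was -6.14 points in *GFI1-36S* and -5.60 in *GFI1-KD* mice but 7.37 in *GFI1-36N* mice. All genes of chromosome X had medians of the same signs, -10.79, -3.47 and 2.03. *Rps4x* in *GFI1-36S* (8.46 points) and *Rpl10* in *GFI1-KD* mice (10.68 points) went against the median of the 4. Changes of at least 10 points in opposite directions were found for the following 7 genes. The share of all genes with such changes was not computed.

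*Rpl5* rose by 12.57 points in *GFI1-36S* and 19.21 in *GFI1-36N* mice and fell by 13.30 in *GFI1-KD* mice. *Rpl7l1* rose by 19.32 and 11.92 points in *GFI1-36S* and *GFI1-36N* mice and fell by 23.20 in *GFI1-KD* mice. *Rpl7* rose by 14.51 points in *GFI1-36S* mice and fell by 11.54 in *GFI1-KD* mice. *Rpl29* rose by 14.68 points in *GFI1-36S* mice and fell by 12.46 in *GFI1-KD* mice. *Rpl10a* rose by 10.90 points in *GFI1-36S* mice and fell by 22.09 in *GFI1-KD* mice. *Rpl38* rose by 20.96 points in *GFI1-36N* mice and fell by 10.84 in *GFI1-KD* mice. *Rps24* rose by 11.10 points in *GFI1-36N* mice and fell by 11.57 in *GFI1-36S* mice. Ranked by recovered fragments, *Rps24* was higher by 15.66 points in *GFI1-36S* mice, so that its signs were no longer opposite. On that scale the fall in *GFI1-KD* mice was -2.49 points for *Rpl10a* and -5.38 for *Rpl29*. The rise of *Rpl7l1* by fragments was 7.09 points in *GFI1-36S* and 11.82 in *GFI1-36N* mice.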

How the results depend on the processing

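No paired analysis was possible because each group holds 1 library and the labels give no replicate numbers, and no replicate could be left out. With the *GFI1-36S* treatments exchanged, the median change of the ribosomal protein genes was -3.37. With the other *GFI1-36S* list in the vehicle comparisons, the median difference was -5.34 for *GFI1-36N* and -9.23 for *GFI1-KD* mice. Over all genes it was 5.65 and 7.64. This alternative was chosen after seeing the data. On the log2 ratio of fragments over the commonest background, the median change with curcumin was -0.64 in *GFI1-36S* and -0.21 in *GFI1-KD* mice. This ratio, which is not fully scaled for depth, was chosen after seeing the data, like the ranking by fragments. On it the summits were lower while the ranks were higher. With a change of 5 in place of 10 rank points, 32 genes ranked higher and 12 lower in *GFI1-36S*, 44 higher in *GFI1-36N*, and 23 higher and 17 lower in *GFI1-KD* mice. With 20 points the numbers were 6 higher and 0 lower in *GFI1-36S*, 8 higher and 1 lower in *GFI1-36N*, and 0 higher and 3 lower in *GFI1-KD* mice. These numbers follow from the threshold, and the shares of all genes at 5 and at 20 points were not computed. With peaks ordered by −log10 p, and likewise by fragments, 1 gene ranked at least 10 points lower in *GFI1-36S* mice. By fragments 5 did in *GFI1-KD* mice. With the TSS nearest to the summit, the median distance was 270 and 295 bp with vehicle and curcumin in *GFI1-36S*, 292 and 269 bp in *GFI1-36N*, and 287 and 296 bp in *GFI1-KD* mice. The remaining 161 values kept their direction, and their counts stayed within 1.5 times. With 1 library per group, neither the spread between mice nor the depth of sequencing behind a rank could be separated from the treatment.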

Other observations

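Translation genes that are not ribosomal proteins had the pattern of the 4 genes of chromosome 15 where they share that chromosome. Of the 18 translation genes, 6 lie on it. *Eif3e*, a subunit of the initiation factor eIF3, ranked 71.6 with vehicle and 98.2 with curcumin in *GFI1-36S*, 90.3 and 87.3 in *GFI1-36N*, then 62.5 and 62.7 in *GFI1-KD* mice. *Eef1d*, an exchange factor of elongation, ranked 43.5, 95.2, 79.1, 78.3, 41.2 and 35.5 in the same order. *Pabpc1*, the poly(A)-binding protein, ranked 53.9, 81.7, 91.6, 94.5, 51.9 and 47.8. The group medians of the translation genes given above include these 6 genes.

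Of the translation genes on other chromosomes, some stayed near the top in every library and others did not. Among the latter, *Npm1* ranked between 45.9 and 76.9 and *Eef1g* between 47.7 and 74.1. Those near the top included the following. *Tpt1* ranked between 98.2 and 99.6 in the 6 libraries, *Eif4a2*, an RNA helicase of initiation, between 97.8 and 99.5, and *Eef1a1*, the main elongation factor, between 94.7 and 98.8. *Eef2*, which moves the ribosome along the mRNA, was the only gene of this list with no promoter peak in any library. *Rps25* was the only such gene among the ribosomal protein genes outside the copies.

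*Rpl36al*, the autosomal copy of *Rpl36a*, ranked 88.7 and 70.9 in *GFI1-36S*, 77.7 and 91.3 in *GFI1-36N*, then 79.8 and 36.8 in *GFI1-KD* mice with vehicle and curcumin, above *Rpl36a* in all 6 libraries.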
